A study of Mus musculus with 23 samples.

Results

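Loss of the second Notch1 copy was examined in mouse oral tumours of the KHR type, by setting 5 tumours labelled KHR-N-/- (KHR with both Notch1 copies lost) against 4 tumours labelled KHR-N+/- (KHR with 1 copy left). These 9 tumours were chosen by their group labels, out of 23 tumours in the series, and each was hybridised to 1 Illumina MouseRef-8 v2 array, on which bead-bound probes report the RNA level of a gene as a fluorescence intensity. The other groups used for reference were 5 tumours labelled KHR alone, whose Notch1 is taken as intact from the series title and carries no genotype in the labels, 5 KR-N+/- tumours and 4 KR-N-/- tumours. All tumours came from C57BL/6 mice and were taken after 21 days of growth as whole tissue. The labels and design text do not say which alleles the codes KHR and KR stand for, what drives the Notch1 deletion or how many animals bore the tumours. All 9 tumours share what the code KHR stands for, and since separate animals are not stated, a p-value here is set against the spread from tumour to tumour, which may be partly technical.

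Notch1 is a cell-surface receptor that is cleaved when a ligand of the Jagged or Delta-like families on a neighbouring cell binds it. The freed intracellular part enters the nucleus, joins the DNA-binding protein RBPJ and switches on target genes. In stratified epithelium such as the lining of the mouth, Notch1 is known for helping keratinocytes leave the basal layer and differentiate, and basal keratinocytes are held to the basement membrane by hemidesmosomes.

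The 9 arrays had 11999 to 12654 detected probes, and mean intensity was lower on the KHR-N-/- arrays (262 ± 28.9, SD, n = 5) than on the KHR-N+/- arrays (312 ± 37.4, n = 4; exact two-sided permutation test over 126 splits, p = 0.0476). Keratinocyte markers were detected on all 9 arrays, among them Krt5 (mean log2 level 12.28 in KHR-N+/- and 12.64 in KHR-N-/-), Krt14 (14.32 and 14.41), Trp63 (10.86 and 11.04), Krt6a (9.89 and 9.55) and Cdh1 (9.74 and 9.51). Levels below are log2 normalised intensities, a difference is KHR-N-/- minus KHR-N+/- on that scale, and a gene is called changed at a limma p-value, adjusted by the Benjamini-Hochberg method over the 9732 detected genes, under 0.05. In whole tumour tissue, fewer cells of a type and less RNA per cell cannot be told apart.

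Notch1 itself had log2 levels of 6.72, 7.65, 5.76 and 7.53 in KHR-N+/- replicates 1 to 4. In KHR-N-/- replicates 1 to 5 they were 5.89, 5.85, 5.80, 5.46 and 5.76. The tumour labelled KHR-N+/- replicate 3 therefore lay inside the KHR-N-/- range, while the other KHR-N+/- tumours lay above it. The KHR tumours were higher than all 9, at 7.94 to 8.81. Over all tumours the difference was -1.16 ± 0.28 (SE, limma adjusted p = 0.12). Without the tumour labelled replicate 3 it was -1.55 ± 0.232. That tumour was set aside for its low Notch1 level, so leaving it out was bound to widen this difference. Notch1 is counted among the genes that passed in that fit, but its p-value there is not a test. A signal remained on all KHR-N-/- arrays, and it is not known here whether the probe reads the deleted part of the gene. In the KR tumours, which share no array with these, the level was 7.86 ± 0.278 (SD, n = 5) with 1 copy and 6.12 ± 0.398 (n = 4) with none.

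**Figure D1:**
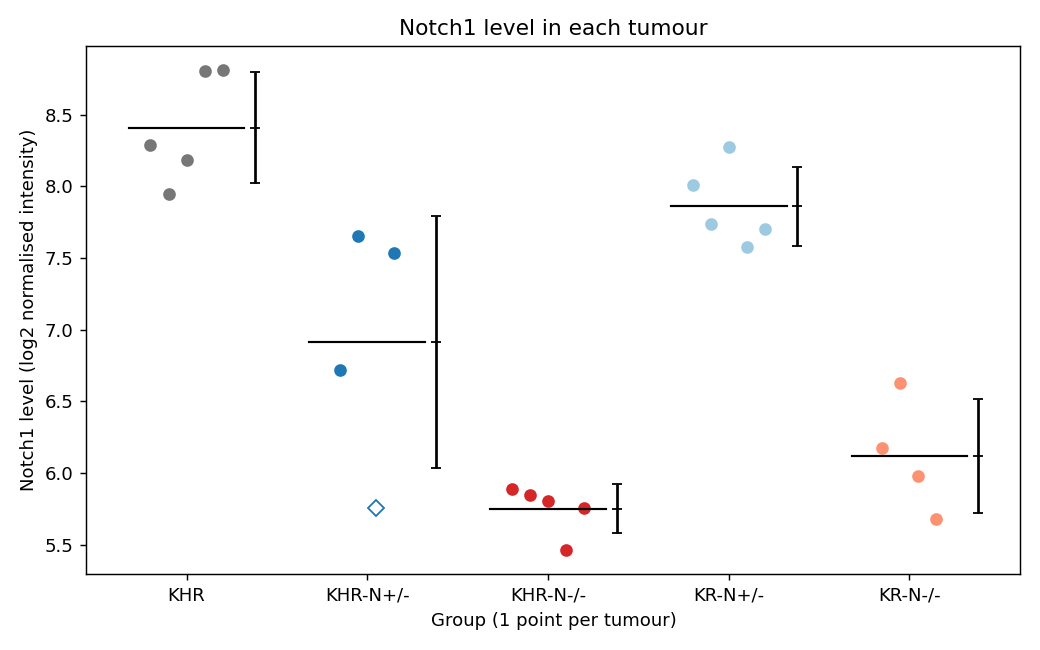
Notch1 level (y axis, log2 normalised intensity) in each of the 23 tumours by group (x axis); each point is 1 tumour, horizontal lines are group means, error bars are SD, and the open diamond is the tumour labelled KHR-N+/- replicate 3. That tumour, at 5.76, sits within the KHR-N-/- range of 5.46 to 5.89, and the KHR tumours sit highest.

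The tumour labelled replicate 3 also differed from the other KHR-N+/- tumours in its sex-linked genes. Xist, the X-inactivation RNA of female cells, was at 5.42, 5.18 and 5.24 in KHR-N+/- replicates 1, 2 and 4 and at 4.27 in the tumour labelled replicate 3. The Y-linked gene Uty was highest there, at 4.93 against 4.17 to 4.48. Uty signal was low, with detection on 3 KHR-N+/- and 2 KHR-N-/- arrays, and Xist was detected on 3 arrays of each group. KHR-N-/- replicates 1 and 4 had low Xist too (4.32 and 4.19), so that KHR-N-/- held both patterns while KHR-N+/- had low Xist only in the tumour with low Notch1. The part of sex in the results without that tumour was not tested beyond 1 fit: with the Xist level as a covariate over all tumours, 7 genes passed, each of them among the 13 described next.

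Few genes differed between the groups when all 9 tumours were compared. Of 9732 detected genes, 13 passed (0.134%), of which 9 rose (0.0925%) and 4 fell (0.0411%) with loss of the second copy, while 790 had an unadjusted limma p under 0.05. Without the tumour labelled replicate 3, 46 genes passed (0.473%), 30 of which rose (0.308%) and 16 of which fell (0.164%), with 825 at an unadjusted limma p under 0.05. Of the 13 genes, 12 passed in both fits, and 34 passed only without that tumour. The 34 include Notch1, whose low level in that tumour was the reason for the second fit. With the replicate number as a block, 6 genes passed, 5 of them among the 13, namely Slitrk5, Wnt3a, Kcnh1, Dct and Aldh1a3. Whether same-numbered tumours form pairs is not known. Without background correction 10 genes passed, 7 of them among the 13, with 4 higher and 6 lower in KHR-N-/-. The count of 13 hung on single tumours. Leaving out any 1 of replicates 1, 2 and 4 of KHR-N+/- gave 0, as did leaving out replicate 2, 4 or 5 of KHR-N-/-, and its replicate 3 gave 6. KHR-N-/- replicate 1 gave 18, of which 11 were among the 13. Leaving out KHR replicate 4 gave 35 and KHR replicate 5 gave 28, whereas KHR replicates 1, 2 and 3 gave 7, 8 and 11. Any 1 KR tumour other than KR-N+/- replicate 1, which gave 16, gave 7 or 8.

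Col17a1, one of the genes that rose, encodes collagen XVII, a transmembrane collagen that is part of the hemidesmosome. Its log2 levels were 10.23, 10.64, 11.35 and 10.36 in KHR-N+/- replicates 1 to 4. They were 11.44, 11.84, 11.57, 11.53 and 11.64 in KHR-N-/- replicates 1 to 5, so the groups did not overlap and the tumour labelled replicate 3 came nearest to KHR-N-/-. The rise was 1.94-fold (log2 difference 0.96 ± 0.179, SE; limma adjusted p = 0.0273), and the 2 dimmer probes of the gene gave differences of 0.87 and 0.91. With the replicate block the call was lost (difference 0.96, limma adjusted p = 0.0514). Col17a1 in the KHR tumours was 10.71 ± 0.217 (SD, n = 5), close to the KHR-N+/- mean of 10.65.

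Trim32 encodes a ubiquitin ligase of the tripartite-motif family. Its log2 levels were 7.01, 7.08, 7.86 and 7.12 in KHR-N+/- and 8.17, 8.32, 8.02, 8.22 and 8.22 in KHR-N-/-. The groups did not overlap, and again the tumour labelled replicate 3 was the highest KHR-N+/- value. Trim32 rose 1.90-fold (difference 0.93 ± 0.165, SE; limma adjusted p = 0.0273) on its brightest probe, whereas its other probe differed by 0.27. The replicate block ended this call as well (difference 0.90, limma adjusted p = 0.063).

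To show the DNA next to the start of these genes, promoters were taken from RefSeq (build GRCm38.p6), each from 250 bases before to 50 bases after the annotated start, and searched on both strands for TGGGAA, the core that RBPJ recognises. Of the 13 genes, 12 had a promoter in that table and 3 of them held the motif, against 28.3% of all 27025 genes with a promoter there and 25.6% of the 32851 promoters. Both genes described above held 1 match, shown in capitals, 5′ to 3′ along the gene. The Col17a1 promoter lies on chromosome 19, at chr19:47691993-47692292 on the minus strand, and its match reads on the opposite strand. The Trim32 promoter lies at chr4:65604736-65605035 on the plus strand. A match is a description of letters, not of binding.
Col17a1: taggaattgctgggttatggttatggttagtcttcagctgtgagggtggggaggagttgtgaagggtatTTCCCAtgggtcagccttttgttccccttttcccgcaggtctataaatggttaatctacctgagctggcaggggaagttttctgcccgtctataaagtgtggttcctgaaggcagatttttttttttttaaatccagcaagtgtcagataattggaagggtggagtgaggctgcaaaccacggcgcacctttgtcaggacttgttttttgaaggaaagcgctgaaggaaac
Trim32: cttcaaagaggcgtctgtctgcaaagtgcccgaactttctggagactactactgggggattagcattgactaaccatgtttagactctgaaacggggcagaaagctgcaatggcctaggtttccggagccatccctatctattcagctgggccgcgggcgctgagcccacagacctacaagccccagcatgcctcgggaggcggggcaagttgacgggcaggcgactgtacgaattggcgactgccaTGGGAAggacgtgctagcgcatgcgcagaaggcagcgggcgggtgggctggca

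Slitrk5 and Wnt3a had the largest rises of the 13 genes. Slitrk5, a membrane protein known from neurons, was at 4.43, 4.83, 5.75 and 4.72 in KHR-N+/- and at 6.70, 7.26, 5.64, 6.56 and 7.04 in KHR-N-/-. The groups overlapped, because KHR-N-/- replicate 3 lay below the tumour labelled KHR-N+/- replicate 3. Slitrk5 rose 3.26-fold (difference 1.70 ± 0.304, SE; limma adjusted p = 0.0273), was detected on 3 of the 4 KHR-N+/- arrays, and without background correction differed by 0.75 and lost its call (limma adjusted p = 0.0655). Wnt3a, a secreted ligand of the canonical Wnt pathway, was at 5.16, 4.88, 5.55 and 5.28 in KHR-N+/- and at 6.05, 6.44, 5.78, 6.71 and 6.71 in KHR-N-/-. The groups did not overlap, and Wnt3a rose 2.17-fold (difference 1.12 ± 0.2, SE; limma adjusted p = 0.0273), or by 0.49 without background correction (limma adjusted p = 0.0496). Wnt3a in the KHR tumours ranged from 5.28 to 6.19 and so spanned the gap between the other groups.

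Ctnnal1 and Kcnh1 rose by similar amounts. Ctnnal1, which encodes the catenin-related protein alpha-catulin, was at 6.69, 6.74, 7.41 and 7.12 in KHR-N+/- and at 7.58, 8.05, 7.52, 8.29 and 8.09 in KHR-N-/- (difference 0.92 ± 0.186, SE; limma adjusted p = 0.0462). Kcnh1, a voltage-gated potassium channel, was at 5.82, 5.85, 5.81 and 6.19 in KHR-N+/- and at 7.25, 6.66, 6.41, 6.86 and 6.94 in KHR-N-/- (difference 0.91 ± 0.182, SE; limma adjusted p = 0.0462). Neither gene overlapped between the groups. Ctnnal1 lost its call with the replicate block (limma adjusted p = 0.0749), and without background correction Ctnnal1 and Kcnh1 lost theirs (differences 0.65 and 0.49, limma adjusted p = 0.0655 for both). Kcnh1 was the 1 gene of the 9 that rose in which the tumour labelled replicate 3 had the lowest KHR-N+/- level, and the 1 gene of the 13 that passed only with that tumour included (limma adjusted p = 0.0541 without it).

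The other 3 rises were, like that of Slitrk5, read from probes that not all KHR-N+/- arrays detected. Mmp11, stromelysin-3, a matrix protease made mainly by stromal cells of tumours, was at 4.34, 5.06, 5.06 and 5.02 in KHR-N+/- and at 5.53, 5.90, 5.85, 5.24 and 6.20 in KHR-N-/- (difference 0.87 ± 0.179, SE; limma adjusted p = 0.0462). Dct, an enzyme of melanin synthesis, was at 4.17, 4.21, 5.04 and 4.18 in KHR-N+/- and at 5.00, 5.03, 5.22, 5.31 and 5.33 in KHR-N-/- (difference 0.78 ± 0.146, SE; limma adjusted p = 0.0273). The Dct groups overlapped only through the tumour labelled replicate 3, the 1 KHR-N+/- array on which Dct was detected. Adgrb2, an adhesion G-protein-coupled receptor, was at 4.56, 4.31, 4.94 and 4.35 in KHR-N+/- and at 5.03, 5.30, 5.42, 5.07 and 5.68 in KHR-N-/- (difference 0.76 ± 0.155, SE; limma adjusted p = 0.0462). Mmp11 was detected on 3 and Adgrb2 on 2 of the 4 KHR-N+/- arrays, and all 5 KHR-N-/- arrays detected these 3 genes. A second Adgrb2 probe differed by 0.14. Without background correction the differences of Mmp11, Dct and Adgrb2 were 0.32, 0.25 and 0.23, and none passed (limma adjusted p = 0.0728, 0.0655 and 0.0868). With the replicate block Mmp11 and Adgrb2 did not pass (limma adjusted p = 0.0775 and 0.0991).

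The largest of the 4 falls was that of Aldh1a3, an aldehyde dehydrogenase that makes retinoic acid. Its log2 levels were 7.48, 8.37, 7.14 and 8.22 in KHR-N+/- and 6.57, 7.02, 6.71, 6.32 and 6.57 in KHR-N-/-. The groups did not overlap, and the tumour labelled replicate 3 was the lowest KHR-N+/- value. Aldh1a3 fell 2.24-fold (difference -1.16 ± 0.21, SE; limma adjusted p = 0.0273), and the KHR tumours, at 7.73 to 8.27, stood apart from KHR-N-/- as well.

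Noct, Acp6 and Ppfibp2 fell by less. Noct, nocturnin, a rhythmically expressed enzyme first known as a circadian gene, was at 9.43, 9.21, 8.77 and 8.83 in KHR-N+/- and at 8.47, 8.21, 8.04, 8.55 and 8.17 in KHR-N-/- (difference -0.77 ± 0.154, SE; limma adjusted p = 0.0462). The KHR tumours had a Noct level of 8.26 ± 0.253 (SD, n = 5), beside 8.29 in KHR-N-/- and 9.06 in KHR-N+/-. Acp6, a phosphatase of lysophosphatidic acid, was at 7.40, 7.72, 7.01 and 7.44 in KHR-N+/- and at 6.76, 6.91, 6.78, 6.44 and 6.57 in KHR-N-/- (difference -0.70 ± 0.131, SE; limma adjusted p = 0.0273). Ppfibp2, liprin-beta-2, was at 6.98, 6.83, 6.46 and 6.87 in KHR-N+/- and at 6.13, 6.28, 6.30, 5.79 and 6.12 in KHR-N-/- (difference -0.66 ± 0.135, SE; limma adjusted p = 0.0462). None of these genes overlapped between the groups, and the tumour labelled replicate 3 was the KHR-N+/- value nearest to KHR-N-/- in all 3. All 3 lost their call with the replicate block (limma adjusted p = 0.0811 for Noct, 0.063 for Acp6 and 0.144 for Ppfibp2), and the differences of Acp6 and Ppfibp2 were -0.45 and -0.36 without background correction. The dimmer Noct probe differed by -0.40 and the dimmer Ppfibp2 probe by -0.45.

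Among the 13 genes, 11 did not overlap between the groups. Over all genes tested, 283 (2.91%) had every KHR-N-/- tumour above every KHR-N+/- tumour and 195 (2%) had every one below. For 5 of the 13 genes the KHR-N+/- mean lay between the KHR and KHR-N-/- means, and for 8 it lay outside them, as for Noct, Wnt3a and Ctnnal1. These contrasts share the KHR-N+/- tumours, so no overlap with the comparison against KHR is given.

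**Figure D2:**
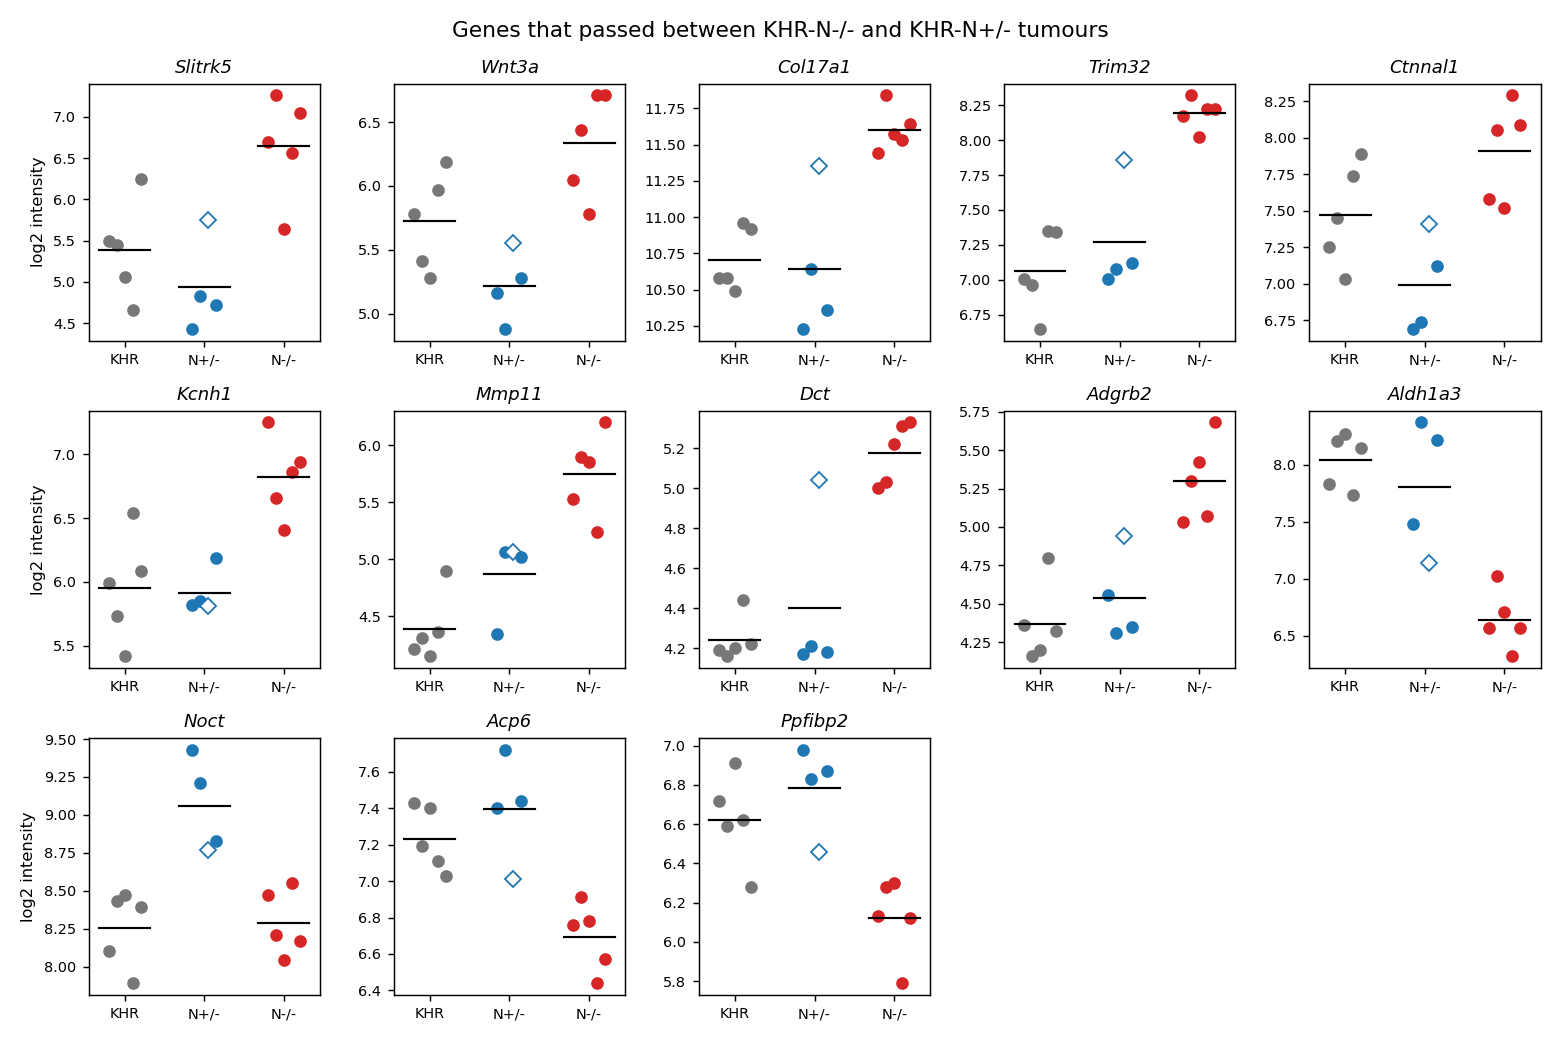
Log2 normalised intensity (y axes, 1 scale per gene) of the 13 genes that passed, in KHR, KHR-N+/- and KHR-N-/- tumours (x axes); points are tumours, lines are group means and open diamonds are the tumour labelled KHR-N+/- replicate 3. In Col17a1, Trim32 and Dct the diamond lies close to the KHR-N-/- points, while in Kcnh1 it lies lowest.

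Among the genes that passed only without the tumour labelled replicate 3, the matrix proteases Mmp10 and Mmp9 had the largest rises. Genes that pass only without that tumour tend, by that choice, to have it near KHR-N-/-. Its place in such genes, here and below, is therefore not separate evidence. Mmp10, stromelysin-2, was at 4.50, 4.70 and 5.52 in KHR-N+/- replicates 1, 2 and 4, at 7.45 in the tumour labelled replicate 3, and at 6.15, 8.27, 6.56, 7.53 and 9.09 in KHR-N-/-. Mmp9, a gelatinase, was at 6.28, 7.04 and 7.16, then 9.12 in the tumour labelled replicate 3, and at 8.52, 9.07, 8.07, 8.85 and 10.19 in KHR-N-/-. In both genes that tumour lay inside the KHR-N-/- range and the other KHR-N+/- tumours lay below it. Without it the difference was 2.61 ± 0.457 (6.12-fold; limma adjusted p = 0.0073) for Mmp10 and 2.12 ± 0.414 (4.33-fold; limma adjusted p = 0.0156) for Mmp9. With it the limma adjusted p was 0.168 and 0.253. Over all tumours Mmp10 differed by 1.98, or by 1.07 without background correction.

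Mmp10 has a promoter in the RefSeq table, at chr9:7502092-7502391 on the plus strand of GRCm38.p6. It is shown because many matrix protease genes are known for AP-1 sites near their start. The AP-1 letters TGANTCA, in capitals, begin 63 bases before the start and are found in 9% of genes with a promoter there. Among the 46 genes, 32 had a promoter in the table and 4 held this motif, while 8 held TGGGAA.
Mmp10: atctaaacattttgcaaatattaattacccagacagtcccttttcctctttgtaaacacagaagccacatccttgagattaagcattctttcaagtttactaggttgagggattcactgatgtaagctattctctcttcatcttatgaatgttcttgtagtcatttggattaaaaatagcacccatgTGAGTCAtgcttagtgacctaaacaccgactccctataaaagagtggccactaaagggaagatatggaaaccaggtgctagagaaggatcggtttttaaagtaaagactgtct

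Csta2, a member of the stefin A family of cysteine protease inhibitors, was at 5.83, 5.95 and 6.23 in KHR-N+/- replicates 1, 2 and 4, at 8.01 in the tumour labelled replicate 3 and at 7.26 to 8.46 in KHR-N-/-. Without that tumour Csta2 rose 3.99-fold (difference 2.00 ± 0.347, SE; limma adjusted p = 0.0073). Lamb3, a chain of laminin-332 to which hemidesmosomes attach, was at 8.68, 9.31 and 9.66, at 10.35 in the tumour labelled replicate 3 and at 9.77 to 11.08 in KHR-N-/- (difference without it 1.23 ± 0.25, SE; limma adjusted p = 0.0228). In both genes that tumour was within the KHR-N-/- range.

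Fzd10, a Wnt receptor, was at 6.90, 6.69 and 6.48, at 7.38 in the tumour labelled replicate 3 and at 7.80 to 8.21 in KHR-N-/- (difference without it 1.30 ± 0.258, SE; limma adjusted p = 0.0174), although its 2 dimmer probes differed by 0.16 and 0.19 over all tumours. Prss35, an inactive serine-protease family member, was at 5.23, 6.60 and 6.39, at 6.79 in the tumour labelled replicate 3 and at 7.06 to 8.11 in KHR-N-/- (difference without it 1.62 ± 0.331, SE; limma adjusted p = 0.0233). Fzd10 and Prss35 did not overlap between the groups even with that tumour, at limma adjusted p of 0.0673 and 0.0618. Cyp2b10, a cytochrome P450, was at 4.87, 4.48 and 4.25, at 6.12 in the tumour labelled replicate 3 and at 4.98 to 6.89 in KHR-N-/- (difference without it 1.36 ± 0.246, SE; limma adjusted p = 0.00745).

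The falls without the tumour labelled replicate 3 were led by AA467197, for which no role is given here. It was at 10.62, 10.53 and 10.80 in KHR-N+/- replicates 1, 2 and 4, at 9.48 in the tumour labelled replicate 3 and at 9.41, 9.07, 7.48, 7.48 and 7.48 in KHR-N-/-. The KHR-N-/- tumours thus fell into 2 levels, and AA467197 did not overlap between the groups. Its difference without that tumour was -2.47 ± 0.552 (5.54-fold lower; limma adjusted p = 0.0396).

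Fa2h, which hydroxylates fatty acids of sphingolipids, was at 6.35 and 6.70 in KHR-N+/- replicates 2 and 4 and higher still in replicate 1, at 4.90 in the tumour labelled replicate 3 and at 4.35 to 4.96 in KHR-N-/- (difference without it -2.04 ± 0.364, SE; limma adjusted p = 0.0073). Prss22, a tryptase-like serine protease, was at 9.99, 8.97 and 8.89, at 7.81 in the tumour labelled replicate 3 and at 7.05 to 7.87 in KHR-N-/- (difference without it -1.90 ± 0.349, SE; limma adjusted p = 0.00768). In both genes the tumour labelled replicate 3 was inside the KHR-N-/- range and the other KHR-N+/- tumours were above it. Lurap1l, Ncmap and Sh3tc2 fell by 1.22, 1.19 and 1.08 on the log2 scale without it (limma adjusted p = 0.00247, 0.0259 and 0.0073). The largest differences that passed in neither fit were those of Psca, a surface antigen (-1.53), and Cldn17, a claudin (-1.48).

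The tumour labelled replicate 3 lay towards KHR-N-/- in most of the 46 genes, a set called in the fit without it. For the 34 genes that passed only in that fit, this place follows partly from the choice. By the choice of fit, all 46 genes had separate groups without that tumour, beside 518 genes (5.32%) with every KHR-N-/- tumour above and 380 (3.9%) with every one below the other KHR-N+/- tumours. Counting Notch1, that tumour was nearer to the KHR-N-/- mean than to the mean of the other KHR-N+/- tumours for 37 of the 46. It was inside the KHR-N-/- range for 22. A place between the group means was then taken for all 9 tumours in turn, each on the 100 genes with the smallest p in the fit without it. On that scale 0 was the KHR-N+/- mean and 1 the KHR-N-/- mean, both taken over the other tumours. The median place was -0.08, 0.08 and 0.26 for KHR-N+/- replicates 1, 2 and 4 and 0.66 for the tumour labelled replicate 3, which was nearer to KHR-N-/- on 75 of its 100 genes. KHR-N-/- replicates 1 to 5 had median places of 0.60, 1.02, 0.53, 0.85 and 1.28. The KHR-N+/- mean held the tumour labelled replicate 3 in all of these places but its own, and each tumour had its own 100 genes. The scales therefore differ, and 0.66 is not ranked against the 0.60 and 0.53 of KHR-N-/- replicates 1 and 3.

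**Figure D3:**
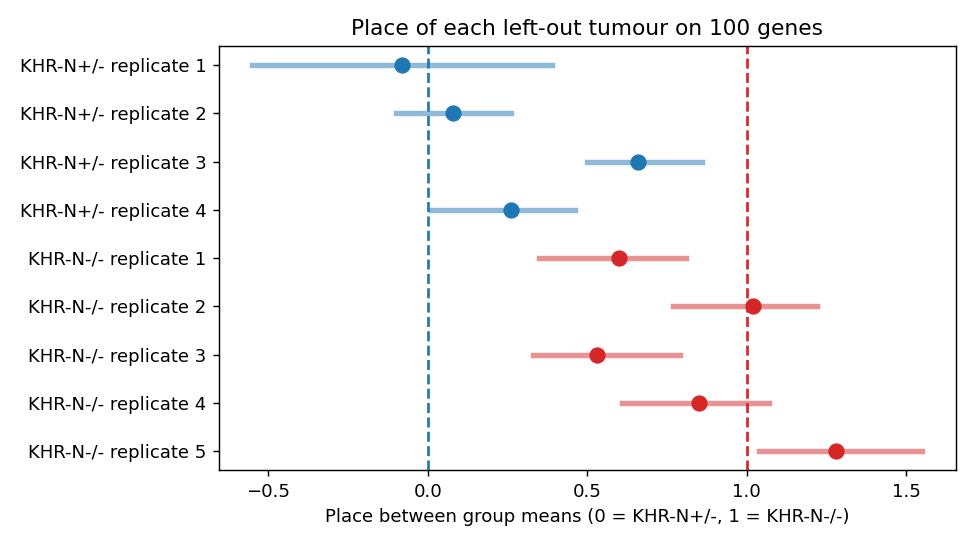
Place of each KHR-N+/- (blue) and KHR-N-/- (red) tumour between both group means (x axis, no unit), over the 100 genes with the smallest p when that tumour was left out; points are medians and bars run from the lower to the upper quartile over genes. The tumour labelled KHR-N+/- replicate 3 lies at 0.66 and KHR-N-/- replicates 1 and 4 at 0.60 and 0.85. Means and genes change with the tumour left out, so these places are not on 1 scale.

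Genes of the hemidesmosome and its anchors in the basement membrane were higher with both copies lost, but 1 of them passed. All 19 tested members had a positive difference, with a median of 0.52 beside 0.01 over all genes tested, of which 52.3% were positive. Col17a1 was the member that passed, beside 0.134% of all genes tested. Lamb3 joined it without the tumour labelled replicate 3, where 0.473% of all genes passed. The next members by p did not pass: Col7a1, the anchoring-fibril collagen, differed by 1.11 (limma adjusted p = 0.177), Itgb4, the integrin of the hemidesmosome, by 0.86 (limma adjusted p = 0.2), and Plec, plectin, which ties it to keratin filaments, by 0.54 (limma adjusted p = 0.204). A dimmer Col7a1 probe differed by 0.45 and a dimmer Itgb4 probe by 0.93. The mean log2 level of the list was 7.24, 7.68, 7.99 and 7.86 in KHR-N+/- and 8.14, 8.39, 7.92, 8.34 and 8.55 in KHR-N-/-, with an overlap between the tumour labelled KHR-N+/- replicate 3 and KHR-N-/- replicate 3. Among the KHR tumours the list mean ran from 7.24 to 8.35 and so overlapped both groups. Other basal keratinocyte genes had a median difference of 0.22, and 0 of 12 passed in either fit; the nearest were the P-cadherin gene Cdh3 (0.43) and the caveolin gene Cav1 (0.54).

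Genes of the upper epithelial layers had mostly negative differences, and 0 of them passed in either fit. Of 36 suprabasal differentiation genes, 30 were lower in KHR-N-/-, with a median of -0.24. For 7 (19.4%, beside 2% of all genes tested) every KHR-N-/- tumour was below every KHR-N+/- tumour. The list means overlapped widely, at 11.09, 10.70, 10.80 and 10.20 in KHR-N+/- and 10.58, 10.45, 10.82, 10.41 and 10.12 in KHR-N-/-. In the KHR tumours the list mean ran from 9.66 to 11.00. The late cornified envelope genes Lce3a and Lce3b differed by -0.88 and -0.41, the epithelial transcription factor Elf3 by -0.52 and the envelope protein gene Ppl by -0.40 (limma adjusted p between 0.305 and 0.508). Of 23 stress and hair keratins, 22 were lower, with a median of -0.40. Krt34 and Krt86, keratins of hair, differed by -1.24 and -1.12, but their levels in KHR-N+/- replicate 1 (7.57 and 6.99) stood above those of the other 8 tumours.

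Fibroblast and fibrillar matrix genes made up the list with the highest median, 0.60, although 0 of its 31 members passed with or without the tumour labelled replicate 3. Of the 31, 29 were higher in KHR-N-/- and 12 (38.7%, beside 2.91% of all genes tested) had every KHR-N-/- tumour above every KHR-N+/- tumour. The mean level of the list was 6.36, 6.81, 6.91 and 6.93 in KHR-N+/- and 7.11, 7.46, 7.26, 7.27 and 7.70 in KHR-N-/-, with no overlap, and the tumour labelled replicate 3 lay with its own group. Col5a1, a fibrillar collagen, was at 7.19, 8.36, 8.66 and 8.55 in KHR-N+/- and at 9.16, 9.56, 9.01, 8.95 and 9.73 in KHR-N-/- (difference 1.09; limma adjusted p = 0.184). Col1a2, a chain of collagen I, differed by 0.96, the secreted glycoprotein gene Fstl1 by 0.82 and Col16a1 by 0.64 (limma adjusted p = 0.202, 0.202 and 0.252). The list mean of the KHR tumours ran from 6.17 to 7.14.

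Among matrix proteases and their inhibitors, Mmp11 was the 1 of 25 that passed, beside 0.134% of all genes tested. Without the tumour labelled replicate 3, 4 of the 25 rose (0.308% of all genes tested), namely Mmp9, Mmp10, Mmp11 and Prss35. In the fit with all tumours 21 members were higher, that is 84% beside 52.3% of all genes, with a median difference of 0.17. The mean level of the list was 6.22, 6.52, 6.81 and 6.64 in KHR-N+/- and 6.77, 7.06, 6.80, 6.86 and 7.39 in KHR-N-/-, so the groups overlapped only through the tumour labelled replicate 3.

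Of 30 Wnt pathway genes tested, the ligand gene Wnt3a and the catenin relative Ctnnal1 rose (0.0925% of all genes tested), and 0 fell (0.0411%). Without the tumour labelled replicate 3, where 0.308% of all genes rose, the ligand gene Wnt10a (difference 0.80), the receptor gene Fzd10 and Dkk3, a secreted protein of the Dickkopf family (1.02), rose as well. Dkk3 was at 6.97, 7.74, 8.18 and 7.96 in KHR-N+/- and at 8.44, 8.74, 8.23, 8.33 and 9.17 in KHR-N-/-. The median difference of the list was 0.04 beside 0.01 over all genes tested.

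Of 20 genes of retinoid metabolism and binding, Aldh1a3 was the 1 that passed, beside 0.134% of all genes tested. The list median was -0.14. The binding protein gene Crabp2 differed by -0.64 (limma adjusted p = 0.253), the retinol receptor gene Stra6 by -1.10 (limma adjusted p = 0.322) and Crabp1 by 0.93 (limma adjusted p = 0.4). Of 14 melanocyte genes on the array, 4 were tested. Dct passed, and Pmel, which builds melanosome fibrils, passed without the tumour labelled replicate 3 (difference 0.71, limma adjusted p = 0.0349). Over all genes tested, 0.134% and 0.473% passed in those fits. Dct and Tyrp1 were detected on 5 KHR-N-/- arrays, 1 KHR-N+/- array and 0 KHR arrays. Among these tumours they met the detection filter through the group where they were high, so their rises are not independent of it. Tyrp1, another melanin enzyme, differed by 0.40, and Tyr, the enzyme that defines the cell type, was detected on 0 of the 9 arrays. Noct was the 1 of 17 circadian genes that passed, beside 0.134% of all genes tested. The clock gene Per2 (-0.48) and the clock output gene Dbp (-0.43) had limma adjusted p of 0.741 and 0.806.

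Members of the Notch pathway other than Notch1 did not pass in either fit. Of 6 receptors and ligands tested, the receptor gene Notch3 differed by -0.35 (limma adjusted p = 0.216) and the ligand gene Jag2 by 0.52 (limma adjusted p = 0.277), with 3 of the 6 higher and 3 lower. Of 8 target genes tested, 4 were higher and 4 lower. The feedback inhibitor gene Nrarp was at 10.16, 10.53, 9.90 and 10.69 in KHR-N+/- and at 10.09, 9.94, 9.86, 10.10 and 9.84 in KHR-N-/- (difference -0.36, limma adjusted p = 0.527). Its lowest KHR-N+/- value was again that of the tumour labelled replicate 3. Cdkn1a, a cell-cycle inhibitor that Notch1 is known to induce in mouse keratinocytes, differed by -0.34 (limma adjusted p = 0.603).

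Of 37 cell-cycle genes, 0 passed in either fit, with a median of -0.09. The smallest p was that of Ccne1, cyclin E1, at 6.10, 6.10, 6.14 and 6.22 in KHR-N+/- and 5.43 to 5.79 in KHR-N-/- (difference -0.48, limma adjusted p = 0.202), and the ribonucleotide reductase gene Rrm1 differed by -0.31. The 14 lists not described singly held 191 tested genes, of which 0 passed with all tumours. Without the tumour labelled replicate 3, Tslp, an epithelial cytokine, and Tgfbi, a matrix protein, rose among them, beside 0.308% of all genes tested.

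**Figure D4:**
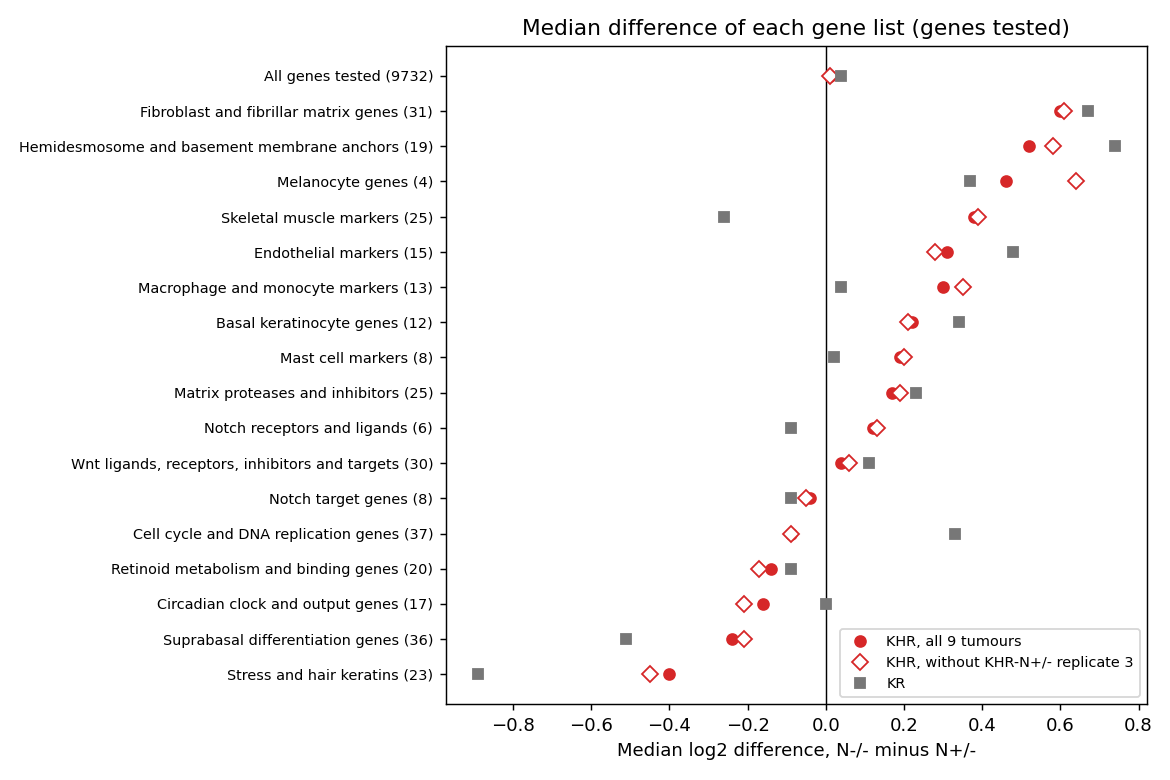
Median log2 difference, N-/- minus N+/- (x axis), of each gene list (y axis, with the number of genes tested), for all 9 KHR tumours (filled circles), without the tumour labelled KHR-N+/- replicate 3 (open diamonds) and for the KR tumours (squares). Among the filled circles, fibroblast and hemidesmosome lists lie highest (0.60 and 0.52) and stress and hair keratins lowest (-0.40). The muscle list is at 0.38 in KHR and -0.26 in KR. The melanocyte list, at 0.64 without that tumour, holds only 4 tested genes, shaped by the detection filter, and is not ranked.

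No marker of muscle, immune, endothelial or nerve cells passed in this comparison, but some of these lists had mostly positive differences, beside 52.3% positive and a median of 0.01 over all genes tested. Medians were near 0 or below it for nerve and Schwann cell (0.04), T and NK cell (-0.03), B and plasma cell (-0.09) and neutrophil markers (-0.12). Of 25 skeletal muscle markers, 23 were higher in KHR-N-/-, with a median of 0.38 and a list mean of 6.90 to 7.29 in KHR-N+/- and 7.20 to 7.58 in KHR-N-/-. Mylpf, a fast-muscle myosin light chain, was at 8.39, 7.76, 8.06 and 7.78 in KHR-N+/- and at 8.47, 9.10, 8.62, 9.17 and 8.96 in KHR-N-/- (difference 0.87, limma adjusted p = 0.213). With the muscle level as a covariate 0 genes passed, and the 13 genes had limma adjusted p of 0.0749 to 0.288. Slitrk5 differed by 1.77, Wnt3a by 1.18, Col17a1 by 0.97, Trim32 by 0.97 and Acp6 by -0.77 in that fit, and the largest relative fall was that of Kcnh1, to 0.69.

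Of 13 macrophage markers, 12 (92.3%, beside 52.3% of all genes) were higher, with a median of 0.30 and a list mean of 5.50 to 5.80 in KHR-N+/- and 5.81 to 6.29 in KHR-N-/-. The lysozyme genes Lyz1 and Lyz2 differed by 0.71 and 0.66, and C1qb, a complement chain, by 0.60. Means in KHR-N+/- and KHR-N-/- were 5.24 and 5.40 for the macrophage marker C1qa and 5.88 and 6.39 for Mrc1. All 8 mast cell markers were higher, by a median of 0.19, among them the protease genes Cpa3 (0.56), Tpsb2 (0.52) and Cma1 (0.43). The 2 dimmer Cpa3 probes differed by -0.02 and 0.62, and the dimmer Cma1 probe by 0.31. Of 15 endothelial markers, 13 were higher, with a median of 0.31, and Eng differed by 0.54 (limma adjusted p = 0.59). The endothelial genes Pecam1, Cdh5 and Kdr had means of 5.69, 4.37 and 4.36 in KHR-N+/- and 5.81, 4.49 and 4.34 in KHR-N-/-. Cdh5 and Kdr were each detected on 1 KHR-N+/- array. The list means were 4.84 to 5.04 and 5.00 to 5.39 for mast cell markers, and 5.35 to 6.12 and 5.73 to 6.29 for endothelial markers, in KHR-N+/- and KHR-N-/-. The adipocyte genes Fabp4 and Plin1 were detected on 0 of the 9 arrays. Apart from the fit with muscle markers, the part of these cells in the results was not tested.

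The same loss of the second copy was available in KR tumours, as 4 KR-N-/- against 5 KR-N+/- arrays, which share no array with the KHR groups but share the pooled estimate of the spread. There 1563 genes passed (16.1%), of which 921 rose (9.46%) and 642 fell (6.6%). All 13 genes of the KHR comparison passed in KR in the same direction. Of the 46 genes without the tumour labelled replicate 3, all 46 had the same sign in KR and 38 passed there. Over all genes tested 68.7% had the same sign, and across genes, which are not independent replicates, Pearson's r between the KHR and KR differences was 0.68 (n = 9732).

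Slitrk5 differed by 2.15 in KR beside 1.70 in KHR, Wnt3a by 1.26 beside 1.12, Col17a1 by 0.87 beside 0.96 and Aldh1a3 by -1.79 beside -1.16. Adgrb2 and Mmp11 differed by 1.27 and 1.31 in KR beside 0.76 and 0.87 in KHR. Mmp10, the largest rise in KHR without the tumour labelled replicate 3, did not pass in KR (difference 1.09, limma adjusted p = 0.15), nor did Mmp9 (1.34, limma adjusted p = 0.0502). AA467197 had a difference of -4.90 in KR.

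Of the 1563 genes that passed in KR, 1381 (88.4%) had the same sign in KHR and 0.832% passed there. The test of the difference between both effects, as an interaction in the same fit, called 0 genes (0%), with 799 at an unadjusted limma p under 0.05, and it called 2 with the replicate number as a block and 1 without KHR-N-/- replicate 5. The smallest p belonged to Mcm5, a subunit of the replication helicase, which differed by -0.24 in KHR and 0.53 in KR (limma adjusted p of the interaction = 0.335). Next was the collagen gene Col26a1, with 0.56 in KHR and 1.99 in KR (limma adjusted p of the interaction = 0.335). Passing in KR and not in KHR was therefore not shown to be a difference between the tumour types for any gene over all tumours. In KR the muscle markers had a list median of the other sign (-0.26), and 11 of 37 cell-cycle genes rose in KR, beside 9.46% of all genes (median 0.33, beside 0.04 over all genes).

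**Figure D5:**
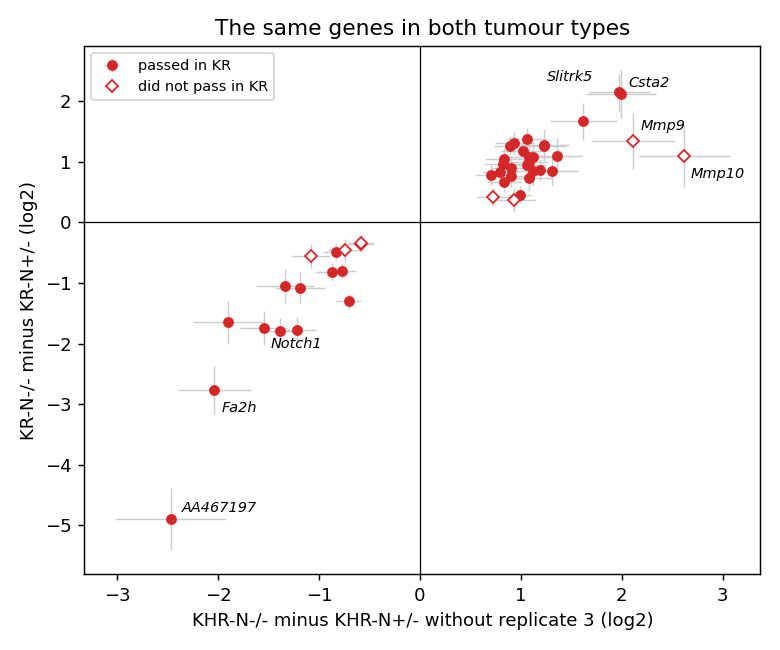
Log2 difference in KHR without the tumour labelled replicate 3 (x axis) against that in KR (y axis) for the 46 genes that passed in the former; bars are SE, filled circles passed in KR and open diamonds did not. All 46 genes lie in the quadrants of equal sign, with AA467197 lowest (-2.47 and -4.90) and Mmp10 farthest right (2.61 and 1.09).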

How the data were processed

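RNA of 23 oral tumours was measured on 1-colour Illumina arrays. The deposited table holds, per the file headers, a mean bead intensity per probe that the authors had not normalised and a detection p-value. The programs GenomeStudio and Partek appear in the submitters' processing notes, with no settings. A second table of the authors holds processed intensity values, with background subtraction and scaling method unstated (26.6% are below 0 and column medians run from 4.44 to 4.55, on a linear scale), and was used as an alternative. Another 23 columns, of bead standard errors, were not used.

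Intensities were background-corrected with normexp from the detection p-values (offset 16), quantile-normalised and log2-transformed with neqc of limma 3.58.1 (R 4.3.3). Probes detected (p under 0.05) on at least 4 of the arrays were kept, and the brightest probe stood for each of 9732 genes; of 25697 probes, 23978 carried 1 gene symbol and 1719 none. All 23 arrays and 5 groups were fitted with lmFit and eBayes (18 residual degrees of freedom), with Benjamini-Hochberg adjustment at 0.05. The procedure was tested on simulated data. The number of arrays limits the precision.

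Gene lists (31) and the tumours compared were chosen with earlier results of these data known, so lists have counts and medians only. The genes named are Notch1, all that passed, the 10 largest rises and falls that passed without KHR-N+/- replicate 3, the 5 largest differences either way, up to 4 members per list by p and up to 5 by interaction p. Some genes that this rule names are given only in counts, and 1 is not reported here; Wnt10a, Tslp and Tgfbi were named after their values were seen, as were the sex-linked genes.

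Replicate numbers are shared between the groups, but the sample titles do not say that same-numbered tumours belong together. Deviations from the group mean were weakly correlated between same-numbered KHR-N+/- and KHR-N-/- tumours (0.145, 0.279, 0.137 and 0.182). Of the 4 KHR-N+/- tumours, 2 correlated best with another number, so these values do not establish pairs. The main fit uses no pairs, and the blocked count is given beside it as an alternative. Alternatives covered background, scaling, the detection filter, the arrays fitted, weights, covariates, probes, the block and each array left out; the order of log2 and quantile steps and the Xist covariate were added after seeing the data.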

Additional observations from a re-analysis of the deposited data

Results flagged for a closer look

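In 228 sets of 4 or 5 values (the genes named, the lists and the array measures, each within a group), 13 values stood apart from the rest of their group by Dixon's criterion, 5.70% of the sets, and chance gives about 1 in 20. The tumour labelled KHR-N+/- replicate 3 held 4 of these values. They were Trim32 (7.86 beside 7.01 to 7.12 in the others of its group), Dct (5.04 beside 4.17 to 4.21), the melanin enzyme gene Tyrp1 (4.88 beside 4.16 to 4.28) and the Y-linked gene Kdm5d (4.70 beside 4.14 to 4.21).

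Keratins stood apart in other tumours. Krt34 was at 7.57 in KHR-N+/- replicate 1 (5.85 to 6.13 in the others), Krt23 at 9.33 in KHR-N+/- replicate 4 (10.26 to 10.33) and Krt86 at 5.46 in KHR-N-/- replicate 1 (4.58 to 4.66). In that last tumour the mean of the stress and hair keratins was 6.81, beside 6.54 to 6.60. Kcnh1 was at 6.19 in KHR-N+/- replicate 4 (5.81 to 5.85). Mmp11 was at 4.34 in KHR-N+/- replicate 1 (5.02 to 5.06) and at 4.90 in KHR replicate 5 (4.15 to 4.36). Dct was at 4.44 in KHR replicate 4 (4.16 to 4.22), and Col26a1 at 6.00 in KHR-N-/- replicate 5 (4.37 to 4.84). The causes were not tested.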

How the results depend on the processing

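The count of 13 genes was 10 without background correction (4 higher and 6 lower, 7 of the 10 among the 13), 10 from the authors' deposited values, 14 with detection at p under 0.01, 15 with a trended and robust fit and 10 with log2 taken before quantile normalization, an alternative chosen after seeing the data. It fell to 7 with every probe on its own, 7 with the Xist level as a covariate (also chosen after seeing the data), 6 with the replicate block and 5 with log2 mean raw intensity as a covariate. It was 0 with median scaling (which moved the median of all genes to -0.15), without the detection filter (16593 genes tested), with muscle markers as a covariate, with the 3 KHR groups fitted alone and with both groups fitted alone, where fewer tumours estimated the spread and 1338 genes had an unadjusted limma p under 0.05. Array weights gave 260. Leaving out 1 array gave 0 to 46 genes. The 13 genes kept their direction in all fits with a value per gene, and each lost its call in 6 to 18 of the 23 fits that left out 1 array. Slitrk5, Kcnh1, Aldh1a3, Wnt3a and Dct passed with the replicate block (limma adjusted p = 0.0296 for the first 3 and 0.0409 for the other two).

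The interaction called 0 genes in all fits but 2, with the replicate block (2 genes) and on leaving out 1 array (0 to 1). List medians turned sign in 3 cases: basal keratinocyte genes with median scaling (-0.02), Notch receptors and ligands on leaving out 1 array (-0.04 to 0.16) and Notch target genes likewise (-0.10 to 0.01). The hemidesmosome and fibroblast medians stayed at 0.25 to 0.61 and 0.37 to 0.65 over 37 fits, while those of muscle, macrophage and melanocyte genes ran from 0.01 to 0.46, 0.10 to 0.38 and 0.02 to 0.64. The causes of these moves were not tested. Signal limits Dct, Mmp11, Adgrb2 and Slitrk5, which not all KHR-N+/- arrays detected. It limits others named here too, as Tyrp1 and Kdm5d were each detected on 1 KHR-N+/- array, Pmel, Pgf and Col26a1 on 2, and Cyp2b10, Cma1 and Uty on 3. Without background correction Pmel, Pgf and Cyp2b10 differed by 0.16, 0.26 and 0.36 over all tumours. Fa2h, Krt34 and Krt86 differed by -0.66, -0.56 and -0.435 in that fit, beside -1.59, -1.24 and -1.12 in the main fit.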

Other observations

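Among the 46 genes that passed without the tumour labelled KHR-N+/- replicate 3 were several not yet described, picked here after their values were seen. Bmp1, which trims procollagen, was at 7.98, 8.85, 9.32 and 8.84 in KHR-N+/- replicates 1 to 4 and at 9.54, 9.97, 9.41, 9.44 and 9.85 in KHR-N-/- (difference without that tumour 1.08, limma adjusted p = 0.0233). Over all 9 tumours its 3 dimmer probes differed by 0.04 to 0.73, beside 0.89 on this probe. Plod3, a collagen lysyl hydroxylase, was at 7.07, 7.58, 7.81 and 7.58 in KHR-N+/- and at 8.12, 8.12, 7.96, 8.33 and 8.62 in KHR-N-/- (0.82, limma adjusted p = 0.0458). Neither gene overlapped between the groups over all 9 tumours. Pgf, placental growth factor, and Gpnmb, a membrane glycoprotein of macrophages and melanocytes, overlapped with that tumour included and rose by 0.94 and 1.08 without it (limma adjusted p = 0.0358 and 0.0233).

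Ddit4, a stress-induced inhibitor of mTORC1, was at 8.85, 9.14, 9.54 and 9.47 in KHR-N+/- and at 9.86 to 10.26 in KHR-N-/- (difference without that tumour 0.83, limma adjusted p = 0.0371). Gch1, the first enzyme of tetrahydrobiopterin synthesis, was at 9.50, 9.34, 8.90 and 9.21 in KHR-N+/- and at 8.49 to 8.83 in KHR-N-/-. Gch1 did not overlap between the groups, had a limma adjusted p of 0.0561 over all tumours and fell by 0.71 on the log2 scale without that tumour (limma adjusted p = 0.0073). In KR tumours Gch1 differed by -1.30 and Bmp1 by 1.08, both passing there.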
